A study of Homo sapiens with 12 samples.

Results

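The response of human multiple myeloma cells to their first 2 days in NGI-1 was measured by RNA-seq. The comparison took 6 of the 12 libraries of the series, 3 from cells after 2 days of NGI-1 and 3 from cells labelled day 0, and it was run across the 11939 of 59276 features whose TPM was 1 or more in 3 or more of the 12 libraries. TPM is the share of all transcripts, corrected for transcript length and scaled to a fixed total, so levels of different genes can be set side by side. All cells carried the label MM1S, a line grown from the blood of a person with multiple myeloma. NGI-1 was used at 10 μM. The labels name NGI-1 as the agent of the day 0 libraries too, while the study calls those cells untreated. Whether they received the solvent is not settled by the labels, and no untreated library of a later day was analysed. The other 6 libraries came from cells after 3 and 5 days in NGI-1. The labels do not say whether the 3 libraries of a group came from separate cultures. The p-values rest on the spread between libraries of the same day, over all 12, and may not extend to separate cultures.

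NGI-1 is a small molecule that inhibits the oligosaccharyltransferase (OST), the complex that moves a preassembled sugar tree from a dolichol lipid to asparagines of proteins entering the endoplasmic reticulum (ER). The sugar helps new glycoproteins to fold, and its trimming tells the ER whether a protein has folded. Plasma cells and the myeloma cells that derive from them make large amounts of immunoglobulin, carry an expanded ER and depend on the unfolded protein response (UPR) that adjusts its capacity.

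The libraries were made from 200 ng of RNA, with more than 60 M read pairs each by their labels. TPM values keep no read counts, so the counting error is unknown. The number of features above 0 ranged from 18164 to 20405 per library. Across the tested features, Pearson's r between libraries of one group was 0.991 to 0.992 in the untreated cells and 0.988 to 0.990 at day 2, and the median SD of a feature was 0.109 and 0.120 on the log2 scale. Features are not independent replicates. All 9 plasma cell markers passed the filter on low values, with TNFRSF17 (BCMA) at 549 to 1328 TPM and IRF4 at 170.0 to 205 TPM over the 6 libraries. None of the 5 B cell, 5 myeloid and 5 fibroblast markers passed. Of 5 T cell markers CD3E alone passed, at 2.75, 2.93 and 3.32 TPM in the untreated libraries and 6.78, 7.14 and 5.06 TPM at day 2, while CD3D was listed at 0 in all 6 libraries. Of 5 epithelial markers KRT8 and KRT18 passed, and EPCAM and KRT19 were listed at 0. The summed level of the T cell list was 2.86 to 3.42 TPM untreated and 5.59 to 7.19 TPM at day 2, that of the epithelial list was 14.5 to 18.4 TPM and 23.5 to 26.6 TPM, and the part of CD3E and KRT8, which were called higher, in other results was not tested.

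The light chain went against what MM1S is known for. MM1S is known as a producer of lambda light chain, and the study measured human lambda chain to follow MM1S cells in mice, which were not analysed here. In these libraries the kappa constant gene IGKC stood at 26953, 23747 and 25082 TPM in the untreated libraries and 23701, 27555 and 24511 TPM at day 2. The lambda gene IGLC1 stood at 552, 507 and 560.1 TPM and 903, 1058 and 815 TPM in the same libraries. IGLC1 was thus higher at day 2, and kappa exceeded it by 26.0 to 48.8 times over the 6 libraries. IGKC ranged from 7071 to 27555 TPM over all 12 libraries of the series, so the kappa transcript was abundant in each. MAF, the gene that the chromosome translocation known in MM1S activates, was at 7.65 to 9.31 TPM in the 6 libraries, and FGFR3, a target of a different myeloma translocation, was at 265 to 350 TPM. MAF and FGFR3 were looked at after their values were seen. The cells are therefore called the cells labelled MM1S, and both groups of the comparison shared this profile.

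After 2 days of NGI-1 the cells had lower levels of transcripts of DNA replication and cell division and higher levels of transcripts of the interferon response, of chemokines and of part of the ER folding and degradation machinery. With limma's moderated test on the deposited log2(TPM + 1) scale, 2774 features (23.2% of those tested) were called lower and 959 (8.03%) higher, where a call required that the adjusted p be below 0.05 and that the size of the log2 fold change exceed 0.5. The median over all features was -0.18. Log2 fold changes are given on the log2(TPM + 1) scale, which understates the change of genes with few transcripts, and values after ± are standard errors of the fit. More than 4-fold changes were called in 47 genes that fell and 43 that rose. Among the genes named as rising or falling, H4C11 alone had overlapping groups.

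TPM values of a library always add up to the same total, so a gain of abundant transcripts lowers the rest. Transcripts of the cytoplasmic ribosomal proteins took 28.9, 28.4 and 29.5% of TPM in the untreated libraries and 33.8, 33.7 and 34.3% at day 2, without overlap. The exact two-sided permutation test of this share gave p = 0.1, the smallest that 3 libraries against 3 allow. Results were therefore also computed after rescaling, where every library was divided by 1 factor that brought its median log2 ratio to 0 across 5433 features with a mean of at least 10 TPM. Rescaling moved the median over all features to 0.013 and the calls to 1360 lower (11.4%) and 1542 higher (12.9%). The lower genes thus made up 74.3% of all calls on the deposited scale and 46.9% after rescaling. All 1360 features called lower after rescaling were also called lower on the deposited scale, 944 were called higher on both, and 0 changed sides.

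The transcripts of the enzyme that NGI-1 inhibits changed little on the deposited scale. Of 12 OST subunits, 1 was called higher and 0 lower, where 8.03% rose and 23.2% fell over all features. After rescaling 2 were higher and 0 lower, against 12.9% and 11.4% over all features. The median log2 fold change was 0.12, and 0.32 after rescaling. All 12 lay above the median of all features, -0.18. The catalytic subunits were STT3A, which serves proteins while they enter the ER and was at 362, 339 and 339 TPM in the untreated libraries and 349, 365 and 351 TPM at day 2, and STT3B, which glycosylates sites that were missed and was at 194, 222 and 199 TPM in the untreated libraries and 279.7, 240.1 and 269.7 TPM at day 2. The STT3A groups overlapped. STT3B was higher in 3 of 3 libraries, with a log2 fold change of 0.36 ± 0.079 (adjusted p = 0.00252) that was below the fold threshold on the deposited scale and was called after rescaling, at 0.59. DDOST, a structural subunit of the complex, was the member that rose, from 305, 291 and 302 TPM to 553, 567 and 517 TPM (log2 fold change 0.86 ± 0.11, adjusted p = 3.49e-05). DAD1, another structural subunit, was at 377, 343 and 364 TPM in the untreated libraries and 369.8, 347 and 366 TPM at day 2, with overlapping groups. MAGT1 and TUSC3, the oxidoreductase subunits that accompany STT3B, went from means of 39.998 to 40.1 and 0.189 to 0.440 TPM respectively, and neither was called.

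The supply of the sugar tree moved in few places. Among 29 genes of dolichol-linked oligosaccharide and sugar nucleotide synthesis 3 fell and 2 rose, where 23.2% fell and 8.03% rose over all features. Their median was -0.18, the same as over all features. GNPNAT1, which acetylates glucosamine on the way to UDP-GlcNAc, fell from 34.8, 37.2 and 36.1 TPM to 22.1, 19.2 and 23.95 TPM (log2 fold change -0.71 ± 0.10, adjusted p = 1.20e-04). ALG14, which helps to add the second GlcNAc of the tree, rose from 1.09, 3.36 and 2.08 TPM to 4.82, 6.90 and 4.06 TPM (log2 fold change 1.02 ± 0.24, adjusted p = 0.00372), at a low level in both groups. DPAGT1, the first enzyme of the tree, was at 51.96, 37.2 and 44.6 TPM in the untreated libraries and 29.04, 32.96 and 32.1 TPM at day 2 and was not called. After rescaling 0 of the 29 were called lower and 5 higher, against 11.4% and 12.9% over all features. In the Golgi, where the sugars of folded proteins are rebuilt, 3 of 16 genes fell and 2 rose, beside 23.2% and 8.03% over all features. MGAT5, which adds a branch, fell (log2 fold change -0.88 ± 0.17, adjusted p = 0.00103). ST6GAL1, which adds terminal sialic acid, rose from 14.3, 14.6 and 14.6 TPM to 20.7, 24.3 and 25.001 TPM (log2 fold change 0.64 ± 0.15, adjusted p = 0.00344).

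The ER folding machinery rose in part. Of 20 ER chaperones and folding enzymes 7 were called higher and 0 lower, where 8.03% rose and 23.2% fell over all features. Among the 19 with an untreated mean of at least 1 TPM 6 rose. The median of the list was 0.36 against -0.18 over all features. DNAJB9, a co-chaperone that binds the stress sensor IRE1, went from 57.7, 61.5 and 53.03 TPM to 142, 121 and 131 TPM (log2 fold change 1.18 ± 0.13, adjusted p = 7.42e-06). HSP90B1 (GRP94), the ER form of HSP90, rose from 771, 833 and 798 TPM to 1184, 1147 and 1219 TPM (log2 fold change 0.56 ± 0.099, adjusted p = 4.74e-04). HSPA5 (BiP), the central chaperone of the ER, was at 230.0, 227 and 218 TPM in the untreated libraries and 273, 289 and 278 TPM at day 2. The HSPA5 groups did not overlap, but its log2 fold change of 0.32 ± 0.13 (adjusted p = 0.059) was not called on the deposited scale. The lectin chaperones that bind the sugar itself, CALR and CANX, went from means of 956 to 1042 and 640.3 to 591 TPM respectively, and neither was called. PDIA3, the disulfide isomerase that works with them, rose (log2 fold change 0.60 ± 0.15, adjusted p = 0.00494). After rescaling 14 of the 20 were called higher, HSPA5 among them at 0.55, against 12.9% over all features.

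Of 22 genes of ER-associated degradation and glycoprotein quality control 5 rose and 4 fell, where 8.03% rose and 23.2% fell over all features, and after rescaling 8 rose and 0 fell. The rising members act at the ER membrane or in its lumen. HERPUD1, a scaffold of the degradation complex, went from 107, 100.4 and 101 TPM to 269, 283 and 278 TPM (log2 fold change 1.42 ± 0.13, adjusted p = 1.27e-06). DERL3, a membrane protein of the export channel family, went from 82.3, 67.7 and 76.6 TPM to 191, 201 and 162 TPM (log2 fold change 1.28 ± 0.11, adjusted p = 7.21e-07). SELENOS, OS9 and EDEM2 rose too, with log2 fold changes of 0.66, 0.66 and 0.55. The falling members included the cytosolic extraction motor, with log2 fold changes of -0.56 for VCP, -0.62 for UFD1 and -0.77 for NPLOC4, and the folding sensor UGGT1 at -0.54. None of these 4 falls was called after rescaling, and 2 also depended on single libraries. The call of UGGT1 was lost without untreated replicate 1 or 2 or any 1 of the day 2 libraries (log2 fold change -0.55 to -0.47), and that of NPLOC4 without replicate 1 or 3 of either group (-0.73 to -0.60). NGLY1, the cytosolic enzyme that strips N-glycans from exported proteins, was at 50.9, 52.7 and 55.8 TPM in the untreated libraries and 72.4, 73.6 and 77.5 TPM at day 2, just under the fold threshold at 0.48 ± 0.080 (adjusted p = 3.05e-04). NGLY1 was called higher after rescaling, at 0.71. In the list of 42 translocon and early transport genes 2 rose and 1 fell, both below the 8.03% and 23.2% over all features, and after rescaling 7 rose and 0 fell. SEC11C, a signal peptidase subunit, rose from 827, 889.6 and 905 TPM to 1515, 1317 and 1429 TPM (log2 fold change 0.70 ± 0.069, adjusted p = 3.54e-06).

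The sensors of ER stress were uneven. In the UPR list, 5 of 15 tested genes rose and 0 fell, with a median of 0.43, where 8.03% rose and 23.2% fell over all features. After rescaling 9 rose and 0 fell, against 12.9% and 11.4% over all features. NUPR1, the list's other member, did not pass the filter. ERN1 (IRE1), the sensor that splices XBP1, rose from 17.1, 16.99 and 18.7 TPM to 37.5, 39.6 and 37.1 TPM (log2 fold change 1.07 ± 0.14, adjusted p = 3.55e-05). EIF2AK3 (PERK), the kinase of translation factor eIF2α, rose from 109, 114 and 104 TPM to 177, 183 and 178 TPM (log2 fold change 0.72 ± 0.13, adjusted p = 4.79e-04). ATF6, the third sensor, went from a mean of 25.02 to 24.1 TPM with overlapping groups. XBP1 itself, whose splicing this table does not resolve, was at 1451, 1594 and 1597 TPM in the untreated libraries and 1160.4, 1249.9 and 1158 TPM at day 2, lower in 3 of 3 libraries and short of the fold threshold at -0.38 ± 0.13 (adjusted p = 0.03).

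Downstream of PERK, DDIT3 (CHOP), a transcription factor of prolonged stress, went from 11.8, 10.8 and 11.3 TPM to 27.9, 22.2 and 28.1 TPM (log2 fold change 1.13 ± 0.11, adjusted p = 3.78e-06). PPP1R15A (GADD34), which restores eIF2α, rose from 23.5, 24.5 and 25.3 TPM to 48.03, 53.3 and 46.8 TPM (log2 fold change 0.99 ± 0.15, adjusted p = 1.30e-04). ATF4 was at 338, 302 and 334 TPM in the untreated libraries and 449, 455 and 407 TPM at day 2 and was called after rescaling alone, at 0.66. TRIB3 and CHAC1, both known targets of ATF4 and CHOP, went from means of 11.4 to 11.9 and 10.2 to 11.7 TPM respectively and were not called. Of 25 genes of amino acid synthesis, transport and tRNA charging 4 rose and 0 fell, and after rescaling 8 rose and 0 fell, where 8.03% and 12.9% rose over all features on these scales. SLC3A2, the heavy chain shared by several amino acid transporters, rose from 125, 123 and 123 TPM to 451, 436 and 406 TPM (log2 fold change 1.79 ± 0.11, adjusted p = 5.89e-08). Its partner SLC7A5 was at 118, 108 and 104 TPM in the untreated libraries and 93.8, 98.8 and 82.98 TPM at day 2 and was not called. ASNS, asparagine synthetase, rose from 86.8, 99.1 and 90.4 TPM to 140.0, 141 and 143 TPM (log2 fold change 0.61 ± 0.082, adjusted p = 5.08e-05).

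Promoter sequence of some of these genes is shown because it holds the words that the known stress factors read. RefSeq promoters (GRCh38.p14) were searched on both strands over the 250 bases before each gene's start. The ER stress response element, CCAAT followed by 9 bases and CCACG, was present in 6 of the 19 chaperone promoters with an entry (31.6%) and in 0.157% of 8942 promoters of tested features. The ATF4 response element TGATGNAA was present in 3 of 20 promoters of the amino acid list (15.0%) and in 1.22% of all. Among called genes with an entry, 3 of 6 chaperones held the ER stress element and 1 of 4 amino acid genes the ATF4 element. A match describes the sequence and does not show that a factor was bound. The 60 bases around a match are given 5′ to 3′ on the strand of the gene, with the matching bases in capitals.
HSPA5 (chr9:125241371-125241430, minus strand): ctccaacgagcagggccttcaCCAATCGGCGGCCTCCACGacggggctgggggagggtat
HSP90B1 (chr12:103930300-103930359, plus strand): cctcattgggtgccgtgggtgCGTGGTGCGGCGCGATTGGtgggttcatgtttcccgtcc
ASNS (chr7:97872443-97872502, minus strand): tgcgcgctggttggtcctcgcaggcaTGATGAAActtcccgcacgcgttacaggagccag
In HSP90B1 the element lies on the opposite strand. HSP90B1 and ASNS were called higher and HSPA5 was not.

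**Figure D1:**
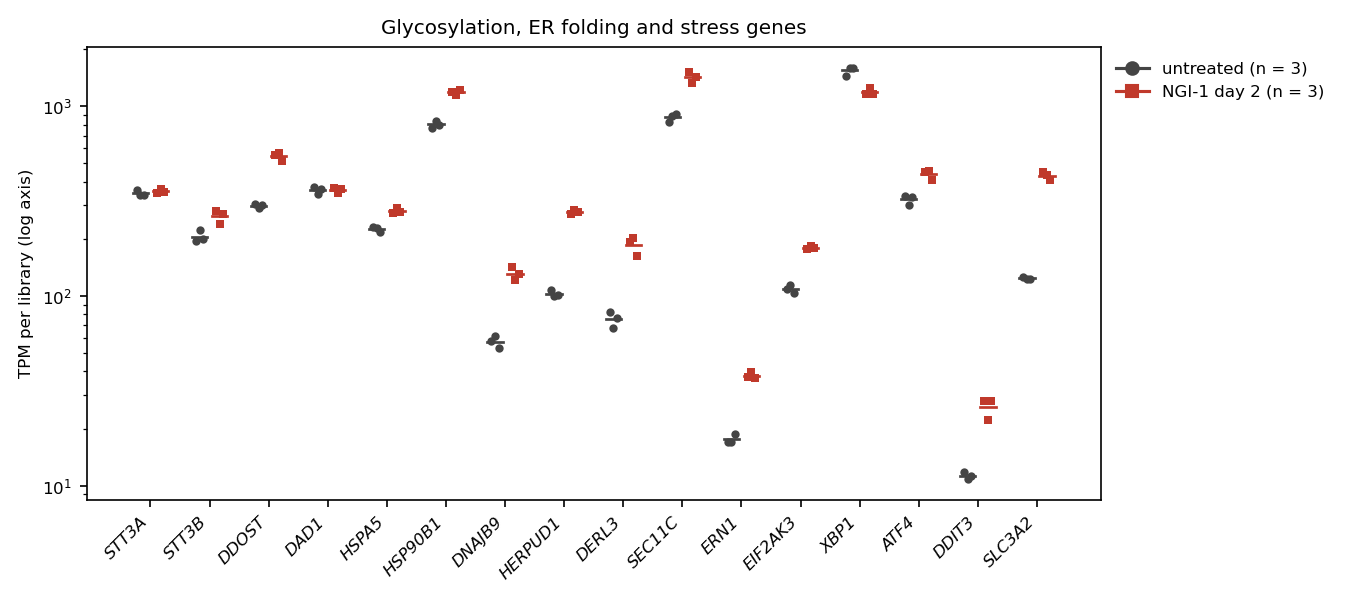
TPM per library (log axis) of glycosylation, ER folding and stress genes in 3 untreated libraries (circles) and 3 libraries after 2 days of NGI-1 (squares), with horizontal bars for the group means. DDOST, DNAJB9, HERPUD1, DERL3, DDIT3 and SLC3A2 separate upwards, while STT3A and DAD1 overlap and XBP1 is lower at day 2.

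Of the 9 plasma cell markers 5 rose and 1 fell, where 8.03% rose and 23.2% fell over all features. Surface proteins used as drug targets were among those that rose. Of 19 tested plasma cell regulators and surface proteins 6 rose and 2 fell. After rescaling 9 of these 19 rose and 0 fell, against 12.9% and 11.4% over all features. TNFRSF17 (BCMA), the receptor for plasma cell survival factors, went from 549, 577 and 606 TPM to 1328, 1158 and 1320.4 TPM (log2 fold change 1.13 ± 0.074, adjusted p = 1.02e-07). SLAMF7 rose from 151, 158 and 158 TPM to 324, 338 and 344 TPM (log2 fold change 1.10 ± 0.10, adjusted p = 2.06e-06), and CD38 from 49.3, 47.3 and 41.2 TPM to 80.9, 96.2 and 89.9 TPM (log2 fold change 0.94 ± 0.13, adjusted p = 8.83e-05). SDC1 (CD138), the syndecan used to sort myeloma cells, fell from 496, 478 and 512 TPM to 336, 334 and 316 TPM (log2 fold change -0.59 ± 0.092, adjusted p = 1.85e-04), and was not called after rescaling. Among the transcription factors, IRF4 was at 202, 205 and 170.0 TPM in the untreated libraries and 204, 202 and 189.8 TPM at day 2 with overlapping groups. PRDM1 (BLIMP1) was at 111, 114 and 93.3 TPM in the untreated libraries and 145, 153 and 149 TPM at day 2, higher in 3 of 3 libraries and just under the fold threshold at 0.49 ± 0.12 (adjusted p = 0.00431). PRDM1 was called higher after rescaling, at 0.72. Messages of immunoglobulin chains took 5.27 to 6.21% of TPM in the untreated libraries and 5.66 to 6.44% at day 2, with overlapping groups. JCHAIN, which joins immunoglobulin polymers, rose from 8732, 10731 and 9629.5 TPM to 18203, 15062 and 17481 TPM (log2 fold change 0.80 ± 0.084, adjusted p = 5.74e-06). MZB1, an ER protein that helps to assemble immunoglobulin, rose from 257, 236 and 271 TPM to 459, 444 and 416 TPM (log2 fold change 0.79 ± 0.085, adjusted p = 7.88e-06). In bulk RNA fewer cells of a kind and less RNA per cell cannot be told apart.

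The interferon-stimulated genes form an antiviral programme that type I interferon switches on, and nearly all that were tested rose. Of 43 listed genes 37 were tested, and 35 of them rose and 0 fell, against 8.03% higher over all features. The median was 1.53 on the deposited scale and 1.49 after rescaling, with 35 called on both. Some members passed the filter only through treated libraries, so the 25 with an untreated mean of at least 1 TPM were also counted, and 24 of these rose. OAS3, HERC6, IFITM2, IFITM3, TRIM22 and GBP1 were not tested, and IFIT2 and OASL were tested and not called.

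IFI27, a small membrane protein of mitochondria and the nuclear envelope, had the largest rise of the named genes, from 18.8, 22.4 and 24.7 TPM to 1119, 1071 and 1119.9 TPM (log2 fold change 5.60 ± 0.085, adjusted p = 3.50e-14). IFI6, an ER membrane protein of the same family, went from 6.89, 11.3 and 13.8 TPM to 211, 204 and 240.2 TPM (log2 fold change 4.28 ± 0.18, adjusted p = 1.89e-09). IFITM1, which hinders the fusion of viruses with the cell, went from 34.4, 32.3 and 37.6 TPM to 454, 506 and 539.9 TPM (log2 fold change 3.81 ± 0.10, adjusted p = 2.52e-11). In all of these the lowest treated library was far above the highest untreated one. ISG15, a ubiquitin-like modifier, rose from 10.2, 12.3 and 11.6 TPM to 120.1, 139.8 and 119.9 TPM (log2 fold change 3.37 ± 0.12, adjusted p = 4.41e-10). OAS1, a sensor of double-stranded RNA, rose from 7.39, 7.02 and 9.56 TPM to 89.1, 69.8 and 61.96 TPM (log2 fold change 3.05 ± 0.15, adjusted p = 1.07e-08). XAF1, an antagonist of the XIAP inhibitor of apoptosis, was nearly absent before treatment, at 0.107, 0.207 and 0.325 TPM, and reached 9.79, 10.8 and 10.4 TPM (log2 fold change 3.22 ± 0.13, adjusted p = 1.89e-09). MX1, a GTPase against viruses, rose from 42.4, 44.3 and 41.1 TPM to 166, 181 and 192 TPM (log2 fold change 2.05 ± 0.15, adjusted p = 3.09e-07). IFIT2 stood apart at 0.219, 0.300 and 0.308 TPM in the untreated libraries and 0.212, 0.283 and 0.294 TPM at day 2, while its neighbours in the family IFIT1 and IFIT3 rose from low levels with log2 fold changes of 1.53 and 1.45.

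Several genes that carry the interferon signal rose as well. Of 14 tested receptors, STATs and IRFs 6 rose and 1 fell, where 8.03% rose and 23.2% fell over all features. After rescaling 7 rose and 0 fell, against 12.9% and 11.4% over all features. IRF9, a subunit of the factor that binds interferon-stimulated genes, rose from 18.3, 11.1 and 16.7 TPM to 71.8, 63.96 and 68.8 TPM (log2 fold change 2.11 ± 0.14, adjusted p = 1.37e-07), and its partner STAT2 from 15.9, 16.1 and 16.3 TPM to 25.9, 28.3 and 26.3 TPM (log2 fold change 0.70 ± 0.18, adjusted p = 0.00577). IRF7, the factor that amplifies interferon production, rose from 1.79, 1.40 and 3.07 TPM to 14.9, 18.3 and 15.7 TPM (log2 fold change 2.52 ± 0.17, adjusted p = 1.32e-07). The receptor chain IFNAR1 was at 68.2, 68.4 and 62.2 TPM in the untreated libraries and 46.5, 51.2 and 46.6 TPM at day 2, lower in 3 of 3 libraries and not called at -0.45 ± 0.19 (adjusted p = 0.0724). TYK2, the kinase bound to that chain, fell (log2 fold change -0.53 ± 0.13, adjusted p = 0.00556), and was not called after rescaling or without untreated replicate 3 (-0.49). Of 12 genes of MHC class I and peptide loading 5 rose and 1 fell, and after rescaling 7 rose and 0 fell, beside the same shares over all features. HLA-F rose from 6.08, 5.56 and 5.62 TPM to 16.2, 18.995 and 17.98 TPM (log2 fold change 1.47 ± 0.12, adjusted p = 6.89e-07), and TAP1, a chain of the peptide transporter, from 32.3, 29.6 and 33.7 TPM to 49.1, 54.3 and 52.9 TPM (log2 fold change 0.69 ± 0.097, adjusted p = 7.44e-05). Reads of the class I genes are hard to divide between near-identical copies. The immunoproteasome, which interferon is known to induce, did not rise with the block, as 1 of 5 genes fell and 4 were not called. Over all features 23.2% fell, and the median of the 5 genes after rescaling was -0.069. PSMB8, one of its catalytic subunits, fell from 90.6, 84.4 and 88.4 TPM to 47.8, 50.4 and 53.7 TPM (log2 fold change -0.78 ± 0.091, adjusted p = 1.50e-05), on both scales, and PSMB9 was at 34.7, 30.7 and 32.4 TPM in the untreated libraries and 26.4, 27.04 and 25.7 TPM at day 2.

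The letters of the interferon-stimulated response element, GAAA followed by any 2 bases and GAAA, were found in 18 of the 30 promoters of tested interferon-stimulated genes that RefSeq lists (60.0%), against 2.39% of the promoters of all tested features. The window of 60 bases around the match nearest to the start is shown for genes of the block with the largest rises, with every match in capitals.
IFI27 (chr14:94110616-94110675, plus strand): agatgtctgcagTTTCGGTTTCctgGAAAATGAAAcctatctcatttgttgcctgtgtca
IFI6 (chr1:27672251-27672310, minus strand): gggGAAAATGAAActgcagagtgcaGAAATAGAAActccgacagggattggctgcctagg
ISG15 (chr1:1013365-1013424, plus strand): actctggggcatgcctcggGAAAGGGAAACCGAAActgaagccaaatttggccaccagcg
IFITM1 (chr11:313975-314034, plus strand): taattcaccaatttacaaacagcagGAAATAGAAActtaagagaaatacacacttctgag
In IFI27 the first match reads on the opposite strand, and in ISG15 a pair of matches overlaps.

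**Figure D2:**
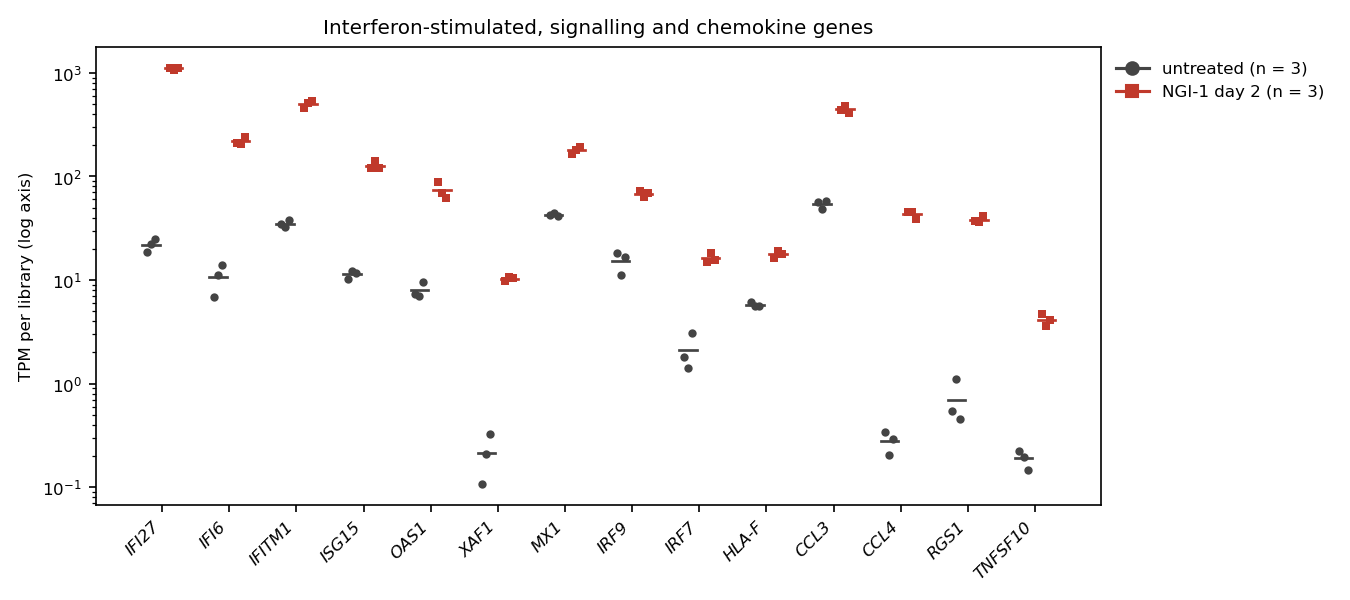
TPM per library (log axis) of interferon-stimulated genes, interferon signalling genes, HLA-F, chemokines, RGS1 and TNFSF10 in 3 untreated libraries (circles) and 3 day 2 libraries (squares), with bars for the group means. The groups are separate for every gene shown, and XAF1, CCL4, RGS1 and TNFSF10 start near or below 1 TPM.

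Chemokine genes rose next to the interferon block. Of 25 listed chemokine and NF-κB feedback genes 19 were tested, 9 rose and 0 fell, where 8.03% rose and 23.2% fell over all features. After rescaling 13 rose and 0 fell, against 12.9% and 11.4% over all features. Among the 14 with an untreated mean of at least 1 TPM 5 rose. CCL4 (MIP-1β), a chemokine for T cells and monocytes, went from 0.341, 0.205 and 0.293 TPM to 44.97, 45.3 and 39.005 TPM (log2 fold change 5.11 ± 0.11, adjusted p = 1.76e-12). CCL3 (MIP-1α), which myeloma cells are known to release and which stimulates osteoclasts, went from 56.7, 48.1 and 57.5 TPM to 443, 479 and 409.8 TPM (log2 fold change 3.01 ± 0.11, adjusted p = 4.03e-10). CCL3L3 and CCL4L2 are near-identical copies of these genes, so the division of reads among the copies is uncertain. RGS1, a brake on chemokine receptor signals, went from 0.540, 1.10 and 0.454 TPM to 37.2, 36.2 and 41.5 TPM (log2 fold change 4.55 ± 0.14, adjusted p = 1.42e-10). NFKBIA (IκBα) rose from 13.7, 17.1 and 16.1 TPM to 32.7, 30.4 and 28.6 TPM (log2 fold change 0.93 ± 0.13, adjusted p = 5.57e-05), RELB rose (log2 fold change 1.31 ± 0.13, adjusted p = 3.20e-06), and TNFAIP3 (A20) was at 11.02, 12.2 and 11.7 TPM in the untreated libraries and 16.9, 17.9 and 15.2 TPM at day 2, under the fold threshold at 0.48 ± 0.18 (adjusted p = 0.0415). TNFAIP3 was called higher after rescaling, at 0.68. CXCL8, TNF, LTA, LTB, TRAF1 and CD83 did not pass the filter.

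Among 12 tested AP-1 and immediate-early genes 3 rose and 1 fell, where 8.03% rose and 23.2% fell over all features. JUN rose from 1.13, 1.09 and 1.31 TPM to 3.29, 2.89 and 3.31 TPM (log2 fold change 0.94 ± 0.15, adjusted p = 2.57e-04), and FOSL1 fell from 2.71, 2.70 and 3.20 TPM to 0.812, 1.53 and 0.900 TPM (log2 fold change -0.91 ± 0.14, adjusted p = 1.59e-04). Of 13 death receptor and caspase genes 2 rose and 1 fell, beside the same 8.03% and 23.2%. After rescaling 2 rose and 0 fell, against 12.9% and 11.4% over all features. Among the 12 with an untreated mean of at least 1 TPM 1 rose and 1 fell. The death receptor FAS fell from 2.30, 2.56 and 2.95 TPM to 1.28, 1.57 and 1.65 TPM (log2 fold change -0.53 ± 0.15, adjusted p = 0.0101), and was not called after rescaling. TNFSF10 (TRAIL), a ligand that can start apoptosis, went from 0.224, 0.196 and 0.147 TPM to 4.66, 3.60 and 4.13 TPM (log2 fold change 2.11 ± 0.12, adjusted p = 2.25e-08). Its receptor TNFRSF10B and the initiator CASP8 did not pass the test, with means that went from 15.7 to 15.4 and from 52.8 to 52.6 TPM respectively. CFLAR (FLIP), which restrains CASP8, rose from 31.3, 28.6 and 30.3 TPM to 50.6, 53.4 and 46.4 TPM (log2 fold change 0.72 ± 0.10, adjusted p = 1.08e-04).

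Of 12 tested genes of the BCL2 family 5 rose and 2 fell, where 8.03% rose and 23.2% fell over all features, and after rescaling 6 rose and 2 fell. BCL2, which protects mitochondria, rose from 3.92, 4.04 and 3.48 TPM to 15.6, 15.2 and 15.3 TPM (log2 fold change 1.77 ± 0.19, adjusted p = 8.76e-06). MCL1, the main survival factor of plasma cells, was at 327, 378 and 352 TPM in the untreated libraries and 498, 495 and 495 TPM at day 2, higher in 3 of 3 libraries and short of the threshold at 0.49 ± 0.14 (adjusted p = 0.0108). MCL1 was called higher after rescaling, at 0.73. BCL2L1, another survival member, went from a mean of 38.5 to 28.8 TPM without overlap. It was short of the fold threshold at -0.40 ± 0.11 (adjusted p = 0.0106) and was not called after rescaling. Among the BH3-only genes that oppose the survival members, BCL2L11 (BIM) rose from 10.4, 12.1 and 9.07 TPM to 20.9, 21.1 and 19.7 TPM (log2 fold change 0.91 ± 0.20, adjusted p = 0.00258), and BBC3 (PUMA) and BMF rose with log2 fold changes of 0.93 and 0.76. PMAIP1 (NOXA), also BH3-only, went from a mean of 10.4 to 9.35 TPM with overlapping groups and was not called. The pore-forming members fell, BAX from 135, 119 and 129 TPM to 53.4, 61.2 and 60.9 TPM (log2 fold change -1.11 ± 0.12, adjusted p = 7.84e-06), and BAK1 from 78.1, 75.2 and 78.3 TPM to 46.8, 44.8 and 43.01 TPM (log2 fold change -0.77 ± 0.11, adjusted p = 8.91e-05), both also after rescaling.

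The transcripts of cell division fell as a block. Of 47 genes of DNA replication 45 fell and 0 rose, against 23.2% lower over all features, with a median of -1.65 and of -1.41 after rescaling. RFC1 and RPA3 were the members that were not called. All 34 mitosis and cytokinesis genes fell, with a median of -1.69. In the list of G1/S cyclins, kinases and E2Fs 15 of 17 fell, in deoxynucleotide supply 9 of 10, and in homologous recombination, Fanconi and checkpoint genes 16 of 17. The number called in each of these lists was the same after rescaling.

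The subunits of the MCM helicase, which unwinds DNA, were among those that fell. MCM2 went from 77.4, 69.3 and 71.4 TPM to 14.3, 16.9 and 12.3 TPM (log2 fold change -2.26 ± 0.15, adjusted p = 1.45e-07), and MCM6 from 77.1, 79.5 and 76.5 TPM to 33.6, 31.5 and 32.3 TPM (log2 fold change -1.23 ± 0.092, adjusted p = 2.68e-07). MCM10, which helps to fire the loaded helicase, had the largest fall of the named genes, from 37.2, 38.4 and 33.2 TPM to 3.55, 4.01 and 3.73 TPM (log2 fold change -2.97 ± 0.12, adjusted p = 1.89e-09). PCNA, the sliding clamp, fell from 138, 144 and 142 TPM to 30.6, 32.04 and 32.6 TPM (log2 fold change -2.12 ± 0.095, adjusted p = 3.62e-09). UHRF1, which guides DNA methylation to new strands, fell from 39.1, 33.9 and 37.8 TPM to 4.81, 4.82 and 4.35 TPM (log2 fold change -2.74 ± 0.12, adjusted p = 2.14e-09), and its partner DNMT1 fell with a log2 fold change of -1.27. For the supply of nucleotides, TYMS, which makes thymidylate, fell from 135, 148 and 137 TPM to 25.2, 24.1 and 25.5 TPM (log2 fold change -2.44 ± 0.14, adjusted p = 3.57e-08), and RRM2, the ribonucleotide reductase subunit, from 486, 450.4 and 463 TPM to 116, 149 and 122 TPM (log2 fold change -1.85 ± 0.15, adjusted p = 6.26e-07).

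At the entry into S phase, CDC25A, the phosphatase that activates CDK2, fell from 25.8, 25.96 and 25.3 TPM to 3.41, 3.06 and 3.73 TPM (log2 fold change -2.60 ± 0.12, adjusted p = 3.62e-09). CCNE2 and CCNA2, the cyclins that drive S phase, fell with log2 fold changes of -2.11 ± 0.14 and -2.19 ± 0.14, and E2F1 with -1.76 ± 0.12. CCND2, a cyclin of early G1, was at 10.7, 10.7 and 10.5 TPM in the untreated libraries and 7.38, 8.08 and 7.61 TPM at day 2 and was short of the fold threshold at -0.42 ± 0.16 (adjusted p = 0.0426). In mitosis, CCNB1 fell from 206, 206 and 189 TPM to 53.7, 54.4 and 55.3 TPM (log2 fold change -1.86 ± 0.10, adjusted p = 2.18e-08), and PLK1, a kinase of spindle assembly, from 69.8, 72.3 and 64.5 TPM to 22.1, 21.9 and 18.99 TPM (log2 fold change -1.67 ± 0.12, adjusted p = 2.24e-07). The checkpoint kinase CHEK1 fell from 74.2, 75.97 and 76.1 TPM to 12.02, 13.7 and 13.1 TPM (log2 fold change -2.46 ± 0.17, adjusted p = 1.62e-07). No library of one group reached the range of the other in any of these called genes.

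Sites read by the known regulators of these genes are shown for a few of them. The E2F site, searched as TTTCCCGC, TTTCGCGC, TTTGCCGC or TTTGGCGC, was present in 12 of 41 promoters of the replication list (29.3%) and in 4.86% of all tested features. The cell cycle homology region TTTGAA was present in 16 of 28 promoters of the mitosis list (57.1%) and in 7.98% of all, and CCAAT in 22 of 28 (78.6%) and in 36.3%. CCAAT is also a part of the ER stress response element.
MCM6 (chr2:135876496-135876555, minus strand): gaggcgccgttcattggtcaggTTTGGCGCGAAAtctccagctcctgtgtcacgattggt
PCNA (chr20:5126648-5126707, minus strand): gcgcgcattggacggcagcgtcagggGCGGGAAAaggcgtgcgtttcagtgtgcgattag
UHRF1 (chr19:4909441-4909500, plus strand): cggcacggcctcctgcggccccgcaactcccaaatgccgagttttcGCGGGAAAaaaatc
CCNB2 (chr15:59105086-59105145, plus strand): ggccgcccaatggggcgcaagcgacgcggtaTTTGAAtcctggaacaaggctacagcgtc
PLK1 (chr16:23678829-23678888, plus strand): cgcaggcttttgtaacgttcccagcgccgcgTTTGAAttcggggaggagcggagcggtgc
BUB1B (chr15:40161009-40161068, plus strand): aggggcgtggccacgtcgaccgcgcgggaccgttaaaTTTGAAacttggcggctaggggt
In MCM6 matches on both strands overlap, and in PCNA and UHRF1 the match reads on the opposite strand. All 6 genes shown fell.

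Several genes known to restrain growth rose and others fell, the CDK inhibitor CDKN1A among them on the deposited scale. Of 24 tested CDK inhibitors and growth restraint genes 9 rose and 3 fell, where 8.03% rose and 23.2% fell over all features. After rescaling 13 rose and 1 fell, against 12.9% and 11.4% over all features. The log2 fold changes of the list ran from -1.38 for RBL1, its largest fall, to 2.10. PDCD4, an inhibitor of translation initiation, rose from 9.06, 10.8 and 12.1 TPM to 38.9, 57.7 and 51.7 TPM (log2 fold change 2.10 ± 0.18, adjusted p = 9.43e-07). YPEL3 rose from 7.56, 7.68 and 9.37 TPM to 33.4, 33.1 and 38.02 TPM (log2 fold change 1.96 ± 0.15, adjusted p = 3.10e-07), and TSC22D3 (GILZ) from 5.00, 5.95 and 5.60 TPM to 19.2, 18.8 and 17.7 TPM (log2 fold change 1.59 ± 0.12, adjusted p = 3.17e-07). TXNIP, which limits glucose uptake, rose from 34.3, 35.004 and 31.9 TPM to 69.2, 70.3 and 72.8 TPM (log2 fold change 1.05 ± 0.11, adjusted p = 4.71e-06). CDKN1A (p21) fell from 37.3, 34.6 and 36.97 TPM to 27.1, 25.2 and 22.9 TPM (log2 fold change -0.52 ± 0.13, adjusted p = 0.00559), a call that was lost after rescaling, without untreated replicate 1 (-0.50) and without day 2 replicate 3 (-0.46). CDKN1B (p27) was at 25.1, 27.2 and 23.6 TPM in the untreated libraries and 33.3, 28.8 and 30.8 TPM at day 2 and was called higher after rescaling alone, at 0.50. CDKN2C (p18) was at 369, 379 and 375 TPM in the untreated libraries and 362, 359 and 362 TPM at day 2 and was not called.

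**Figure D3:**
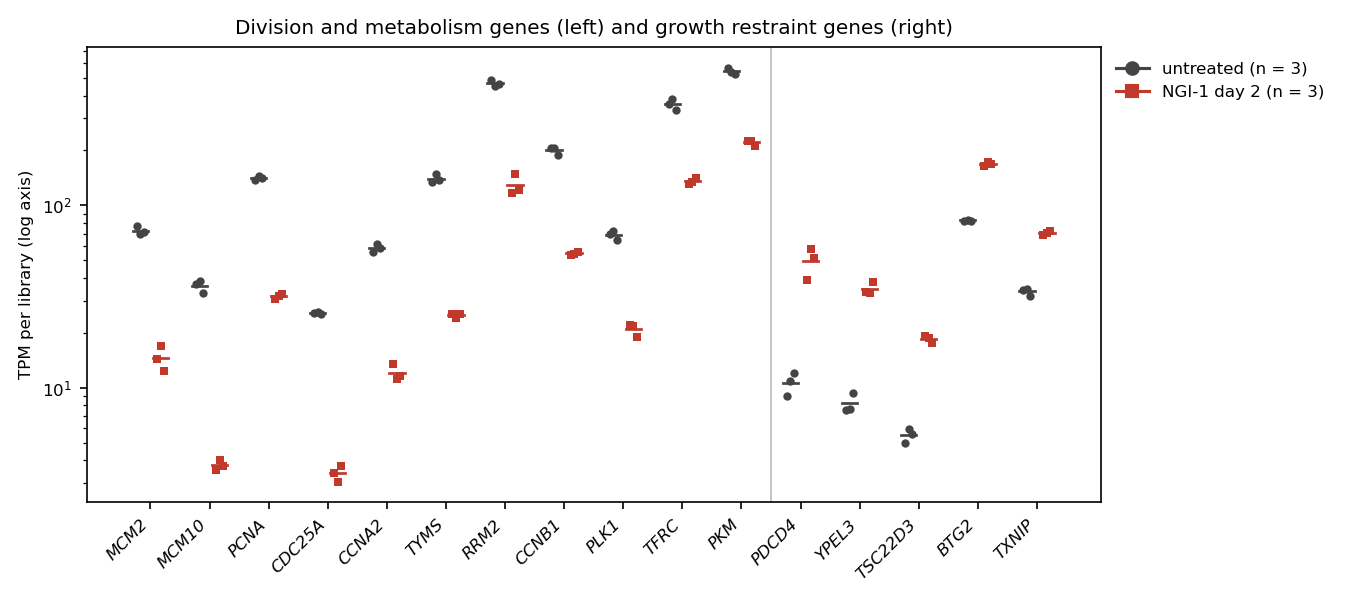
TPM per library (log axis) of division, iron uptake and glycolysis genes (left of the line) and growth restraint genes (right of it) in 3 untreated libraries (circles) and 3 day 2 libraries (squares), with bars for the group means. Every gene on the left is lower and every gene on the right higher at day 2, without overlap. The 3 growth restraint genes called lower are not shown.

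Histone genes did not fall with the replication genes. Of 76 replication-dependent histone genes and copies 29 were tested. Of these 17 rose and 1 fell, where 8.03% rose and 23.2% fell over all features. Among the 22 with an untreated mean of at least 1 TPM 13 rose. H2AC6 went from 4.11, 4.99 and 5.09 TPM to 43.4, 38.6 and 43.3 TPM (log2 fold change 2.90 ± 0.10, adjusted p = 4.03e-10). The linker histone H1-2 rose from 55.01, 49.8 and 58.4 TPM to 244, 248 and 253 TPM (log2 fold change 2.17 ± 0.084, adjusted p = 9.47e-10), and H2BC12 from 90.6, 69.6 and 73.4 TPM to 261, 305 and 299 TPM (log2 fold change 1.88 ± 0.10, adjusted p = 2.25e-08). Replication histone messages normally lack a poly(A) tail, and some genes also make tailed forms. Which form was read was not tested, and reads of near-identical copies are hard to divide. H4C11 stood at 0 in each untreated library and at 0, 46.8 and 29.1 TPM at day 2, so its groups overlapped and its call rests on 2 of 3 libraries.

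Of 79 cytoplasmic ribosomal protein genes 6 rose and 0 fell, where 8.03% rose and 23.2% fell over all features, with a median of 0.13 against -0.18 over all features. RPS27 rose from 19969.7, 20493 and 21270.0 TPM to 34633, 33213 and 36239 TPM (log2 fold change 0.75 ± 0.064, adjusted p = 7.99e-07). After rescaling 18 of the 79 rose and 0 fell, against 12.9% and 11.4% over all features, with a median of 0.36. EEF1A1, the elongation factor that brings tRNAs to the ribosome, was at 15579, 16210.2 and 15638 TPM in the untreated libraries and 15530.4, 16491 and 16798 TPM at day 2, with overlapping groups. Of 24 genes of ribosome biogenesis and RNA polymerase I 18 fell and 0 rose, and 10 fell after rescaling. NCL, the nucleolar protein nucleolin, fell from 989.7, 1176 and 973 TPM to 576, 631 and 599 TPM (log2 fold change -0.79 ± 0.12, adjusted p = 1.29e-04), and NOLC1 from 185, 184 and 173 TPM to 91.8, 98.6 and 95.97 TPM (log2 fold change -0.91 ± 0.18, adjusted p = 0.00102). Of the 13 mitochondrially encoded messages 1 rose, where 8.03% rose over all features, and 5 rose after rescaling, against 12.9%. The 1 was MT-CO1, with a log2 fold change of 0.50 that was not called without untreated replicate 3 (0.49) or day 2 replicate 2 (0.46). Of 30 nuclear-encoded respiratory chain genes 10 fell and 0 rose, where 23.2% fell over all features. After rescaling 2 of the 30 fell, against 11.4% over all features.

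Most genes of glycolysis, the proteasome and the heat shock response fell on the deposited scale, and fewer did after rescaling. Of 24 tested genes of glycolysis and the pentose phosphate path 17 fell and 0 rose, with a median of -0.68. Over all features 23.2% fell and 8.03% rose. PKM, pyruvate kinase, fell from 569, 537 and 525 TPM to 227, 226 and 212 TPM (log2 fold change -1.29 ± 0.099, adjusted p = 3.47e-07), and LDHA, lactate dehydrogenase, from 1799, 1962 and 1769 TPM to 971, 953 and 919.7 TPM (log2 fold change -0.96 ± 0.082, adjusted p = 9.55e-07). After rescaling 11 fell and 1 rose, against 11.4% and 12.9% over all features. Of 36 constitutive proteasome subunits and assembly factors 27 fell and 0 rose, with a median of -0.63, and 11 fell after rescaling. PSMD11, a subunit of the regulatory lid, fell from 104, 99.1 and 104 TPM to 42.4, 49.4 and 48.9 TPM (log2 fold change -1.11 ± 0.18, adjusted p = 2.35e-04). PSMB5, the catalytic subunit that bortezomib binds, fell from 88.4, 78.4 and 85.7 TPM to 57.3, 59.1 and 52.2 TPM (log2 fold change -0.57 ± 0.091, adjusted p = 2.06e-04), and was not called after rescaling.

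Outside the ER, 11 of 13 tested heat shock proteins of the cytosol and mitochondria fell and 0 rose, and 6 fell after rescaling. In the ER, 7 of 20 chaperones and folding enzymes rose and 0 fell. HSPA8 (HSC70) fell from 2055, 2048 and 1998 TPM to 953, 998 and 998 TPM (log2 fold change -1.05 ± 0.066, adjusted p = 6.84e-08), and HSPD1, the mitochondrial chaperonin, from 1022, 1080.1 and 1039 TPM to 494, 508 and 521 TPM (log2 fold change -1.04 ± 0.082, adjusted p = 4.38e-07). Of 12 tested genes of the NRF2 and iron list 7 fell and 0 rose, where 23.2% fell over all features, and 3 fell after rescaling. TFRC, the transferrin receptor that brings iron into the cell, fell from 362, 382 and 333 TPM to 131, 135 and 142 TPM (log2 fold change -1.39 ± 0.13, adjusted p = 2.83e-06). NFE2L1 (NRF1), a glycoprotein that restores proteasome genes once its sugars are removed, was at 27.7, 34.2 and 28.8 TPM in the untreated libraries and 28.1, 18.6 and 28.98 TPM at day 2, with overlapping groups.

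Of 25 autophagy and lysosome genes 7 rose and 2 fell, where 8.03% rose and 23.2% fell over all features, and after rescaling 15 rose and 1 fell. SQSTM1 (p62), a receptor that takes ubiquitinated cargo to autophagosomes, went from 81.7, 81.1 and 83.7 TPM to 181, 209 and 177 TPM (log2 fold change 1.19 ± 0.091, adjusted p = 3.58e-07). GLA, a lysosomal galactosidase, fell from 21.6, 20.1 and 20.2 TPM to 7.94, 12.04 and 8.53 TPM (log2 fold change -1.06 ± 0.16, adjusted p = 1.71e-04). Of 25 sterol and fatty acid synthesis genes 6 fell and 2 rose, close to the 23.2% and 8.03% over all features, and after rescaling 2 fell and 3 rose. The sterol response element TCACNCCAC was searched for in their promoters. SQLE, an enzyme of cholesterol synthesis that uses oxygen, rose from 44.1, 48.9 and 44.1 TPM to 87.7, 86.8 and 83.7 TPM (log2 fold change 0.90 ± 0.094, adjusted p = 5.87e-06). Among 12 small nucleolar RNA host genes and other long noncoding RNAs 6 rose and 2 fell, and after rescaling 6 rose and 1 fell. GAS5 rose from 1144, 1161 and 1236 TPM to 1911, 1843 and 1983 TPM (log2 fold change 0.70 ± 0.075, adjusted p = 7.91e-06), and SNHG1 fell from 143, 151 and 161 TPM to 74.2, 66.6 and 75.4 TPM (log2 fold change -1.06 ± 0.079, adjusted p = 2.71e-07). Over all tested features matched to the annotation, 68 of 279 long intergenic noncoding RNAs were called higher and 21 lower, beside 741 higher and 2619 lower of 10441 protein-coding genes. After rescaling 73 of these noncoding RNAs were higher and 12 lower, beside 1278 higher and 1280 lower protein-coding genes. How many of them passed the filter only through treated libraries was not counted.

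The later libraries place these levels in time. Days 3 and 5 share the untreated libraries with day 2, so their means are only set side by side. IFI27 had means of 21.97, 1104, 1455 and 1059 TPM at days 0, 2, 3 and 5, most of the rise being present at day 2. CCL4 had 0.280, 43.1, 24.01 and 27.01 TPM, with its highest mean at day 2. RRM2 had 467, 129, 6.63 and 1.31 TPM, so that its level at day 2 lay between the untreated and the later ones. The change of RRM2 from day 2 to day 3, tested in the same fit, was -4.10 (SE 0.15, adjusted p = 7.56e-10) on the log2 scale, and that of CCL4 was -0.82 (SE 0.11, adjusted p = 3.28e-05), which was not called after rescaling. TNFRSF17 had 577, 1269, 2022 and 2087 TPM, with a change from day 2 to day 3 of 0.67 (SE 0.074, adjusted p = 9.23e-06).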

How the data were processed

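RNA was sequenced from cells at days 0, 2, 3 and 5 of NGI-1, with 3 libraries a day. The authors deposited 1 table of log2(TPM + 1) values per gene for 12 libraries, and the submitters' processing notes name FastQC, Trimmomatic, STAR and Salmon with genome build hg38. The annotation and the tool versions are not given in the sources used here. TPM was recovered from the deposited log2 values. Features whose TPM was 1 or more in 3 or more of the 12 libraries were kept. A linear model over the 4 days, with empirical Bayes moderation and a mean-variance trend, was fitted with limma 3.58.1 in R 4.3.3 to all 12 libraries, so the days shared 1 estimate of the spread. P-values were adjusted by Benjamini-Hochberg over all features, and a call required an adjusted p below 0.05 with a log2 fold change beyond 0.5 in either direction. Groups were taken from the labels. The script was tested on simulated data before use.

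The gene lists, and the genes named, were chosen with earlier results of these data known. Named were, of the called features that did not overlap and averaged 10 TPM or more in one group, the 12 with the largest rise and the 12 with the largest fall, genes chosen by role, and the largest called rise and fall of each list. Named outside this rule, after their values were seen, were BAK1, BBC3, BMF, CCNB2, CFLAR, DERL3, EDEM2, FGFR3, H1-2, H2BC12, IGKC, OASL, OS9, PDIA3, PKM, RELB, SELENOS, TSC22D3, UFD1, VCP, YPEL3 and the marker genes KRT18 and EPCAM. Not every gene of the rule is reported here.

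The share of TPM was compared with an exact permutation test over the libraries. Promoters (250 bases before the start, RefSeq GRCh38.p14) were matched by symbol to 8942 tested features, and gene types (GENCODE release 29) to 11634. Alternatives were the filter, the pseudocount, rescaling, dropping ribosomal protein and mitochondrial features, the fold threshold, the trend, a fit of the 6 libraries alone and leaving out each library. Figures were drawn with matplotlib 3.10.9 in Python 3.11.15.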

Additional observations from a re-analysis of the deposited data

Results flagged for a closer look

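Among the named genes that passed the test at day 2 on both scales, HSP90AA1, the stress-inducible cytosolic HSP90, was lower at day 2 and higher at day 3 than at day 2. Its levels were 1195, 1186 and 1249 TPM in the untreated libraries and 621, 571 and 629 TPM at day 2 (log2 fold change -0.99 ± 0.074, adjusted p = 2.84e-07), and its means at days 3 and 5 were 889.7 and 971 TPM. The change from day 2 to day 3, tested in the same limma fit, was 0.55 (adjusted p = 3.67e-05) on the deposited scale and 1.18 after rescaling. The effect at day 2 and the change to day 3 share the day 2 libraries.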

How the results depend on the processing

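The counts of calls (2774 lower and 959 higher) moved by over 1.5 times under some settings. Rescaling gave 1360 lower and 1542 higher, a log2 fold change threshold of 1 gave 620 and 262, a filter at 5 TPM gave 626 higher, leaving out ribosomal protein and mitochondrial features gave 1476 higher, and no fold threshold gave 1449 higher. Leaving out 1 library gave 2626 to 2787 lower and 901 to 955 higher. The rise of the ribosomal protein share kept its direction with each library left out. Of 155 features named in the text and tested, 118 were called, 0 of these turned their direction under any of 15 alternatives, and 5 lost their call without some library. Under rescaling 9 lost and 9 gained a call. These counts leave out BCL2L1, FAS, PMAIP1 and RBL1.

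Of those not called, 11 turned direction somewhere. After rescaling, and without ribosomal protein and mitochondrial features, the log2 fold changes were 0.23 and 0.15 for IGKC, 0.10 and 0.032 for MAF, 0.23 and 0.15 for DAD1, 0.12 and 0.038 for CANX, 0.17 and 0.097 for ATF6, 0.027 and 0.026 for IFIT2, 0.19 and 0.12 for TNFRSF10B, 0.22 and 0.14 for CASP8, and 0.18 and 0.0996 for CDKN2C. With 1 library left out they were -0.066 to 0.046 for IGKC, -0.037 to 0.030 for DAD1, -0.050 to 0.045 for MAGT1, -0.047 to 0.015 for IFIT2, -0.035 to 0.098 for IRF4, -0.081 to 0.017 for TNFRSF10B and -0.073 to 0.054 for CASP8. Apart from rescaling and the dropped features, whose construction moves every value, the cause was not tested.

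TPM keeps no counts, so the precision of low values is unknown. No paired analysis was possible because the labels give the groups no shared replicate numbers.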

Other observations

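Features outside the lists, chosen after their values were seen, also moved. The complement gene C4A went from 13.8, 7.48 and 8.07 TPM to 69.97, 69.2 and 76.03 TPM (log2 fold change 2.80 ± 0.23, adjusted p = 6.81e-07), and its near-identical copy C4B rose with a log2 fold change of 2.28, so the division of reads between them is uncertain. SELENOP, a secreted carrier of selenium, rose from 0.854, 1.28 and 0.616 TPM to 10.8, 11.4 and 14.6 TPM (log2 fold change 2.80 ± 0.16, adjusted p = 2.94e-08). AIM2, a sensor of cytosolic DNA, rose from 3.60, 4.68 and 3.75 TPM to 18.8, 16.7 and 19.97 TPM (log2 fold change 1.96 ± 0.11, adjusted p = 2.71e-08). The long noncoding RNA LINC01480 was abundant before treatment, at 276, 285 and 311 TPM, and reached 1931, 1726 and 1821 TPM (log2 fold change 2.65 ± 0.072, adjusted p = 2.52e-11). Among the falls were the tubulin genes TUBA1B, from 1123, 1019 and 1056 TPM to 279, 280.0 and 254 TPM (log2 fold change -1.97 ± 0.074, adjusted p = 7.46e-10), and TUBB (log2 fold change -1.87).

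The noncoding RNAs RN7SK and RMRP, which normally lack a poly(A) tail, were also picked after their values were seen and stand for no class. RN7SK, which holds the elongation factor P-TEFb inactive, was at 9.28, 5.65 and 14.1 TPM in the untreated libraries and 57.9, 68.7 and 49.7 TPM at day 2 (log2 fold change 2.55 ± 0.28, adjusted p = 8.90e-06). RMRP, the RNA of an endonuclease that acts on ribosomal RNA precursors, had a log2 fold change of 2.14. How these RNAs entered the libraries was not tested.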
